A study of Mus musculus with 4 samples.

Results

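Intron peaks close to the start of a gene were collected from the peak lists of 3 RNA-binding proteins that read the m6A mark, in mouse lin- c-Kit+ bone marrow cells. A peak was taken when its summit lay in no annotated exon and in an intron of a protein-coding gene, at most 2000 nt downstream of the gene's 5′ end. Of 19866 peaks, 564 met this rule, and they lay in 487 genes. The IGF2BP2 list held 79 of them among 7069 peaks, the YTHDF2 list 35 among 2834 and the YTHDC1 list 450 among 9963. The cells, called LIC in the labels without spelling it out, were grown in medium with IL3, IL6 and SCF. RNA was crosslinked to protein by UV light, the lysate was sonicated, and fragments bound by each reader were immunoprecipitated and sequenced with a stranded kit. Each reader has 1 library, there is 1 input library whose own track was not analysed here, and no genotype, age or treatment is given in the sources used here. No difference between readers therefore has a replicate check, intervals cover counting error only, sequencing depth is unknown, and no test was made.

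The first intron begins at the 5′ splice site that ends the first exon, and it is removed while the RNA is still being made, so RNA from it is found mainly in the nucleus. m6A is a methyl group placed on adenosines of RNA in the nucleus, and reader proteins bind the marked transcripts. YTHDC1 is the nuclear reader and is known for roles in splicing, RNA export and chromatin. IGF2BP2 is known for stabilising mRNA in the cytoplasm, and YTHDF2 for directing mRNA to decay there. Many mammalian genes start in CpG islands, stretches of DNA rich in C, G and the dinucleotide CpG.

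Sequence is shown first for peaks that straddle the end of an exon, because many members did so and their summits lay only a few bases inside the intron. Each line gives the last 30 exon bases on the gene's strand before the intron, from the GENCODE transcripts of GRCm38, with the last 3 bases in capitals. For Arglu1, Zwint and Suds3 the exon is the first of the gene, for Fos the third and for Hnrnpa1 the fourth.
Arglu1, chr8:8689977-8690006, minus strand: gaaggcggagttcgagcgacagcgaaaAAT
Zwint, chr10:72654948-72654977, plus strand: ggagaaaaacaacgctgttgcgacgaaAGA
Suds3, chr5:117115672-117115701, minus strand: gcagctgccggggccgagagtccgacgAAG
Fos, chr12:85475670-85475699, plus strand: aggagggagctgacagatacactccaaGCG
Hnrnpa1, chr15:103242084-103242113, plus strand: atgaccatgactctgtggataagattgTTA
The IGF2BP2 summit in Arglu1 lay 2 nt past its junction, and the peak ran from 112 nt before to 88 nt after it. The YTHDF2 summit in Suds3 lay 13 nt past the junction, with 58 of the peak's bases before it and 78 after it.

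Windows that run from 50 bases before to 50 bases after YTHDC1 summits are shown next, because most YTHDC1 members lay clear of exons. No genome sequence was used here, so a window could be read only where a RefSeq promoter entry (GRCm38.p6, 250 bases before to 50 after a start) covered it. That was the case for 18 of 450 YTHDC1 members, 2 of 79 for IGF2BP2 and 0 of 35 for YTHDF2. These windows lie beside a RefSeq transcription start by construction and do not stand for the other members. Of the 18 YTHDC1 windows, 8 held no base of a GENCODE exon. The 7 of these that also held none of the first 50 transcribed bases of a RefSeq start are printed on the gene's strand with every CpG in capitals.
Ecpas, chr4:58912065-58912165, minus strand: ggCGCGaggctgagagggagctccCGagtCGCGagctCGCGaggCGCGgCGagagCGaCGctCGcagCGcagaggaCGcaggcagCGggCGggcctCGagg
Ehmt2, chr17:34898733-34898833, plus strand: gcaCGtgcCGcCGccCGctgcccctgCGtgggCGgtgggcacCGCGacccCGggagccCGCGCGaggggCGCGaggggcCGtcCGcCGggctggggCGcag
Rbmxl1, chr8:78508636-78508736, minus strand: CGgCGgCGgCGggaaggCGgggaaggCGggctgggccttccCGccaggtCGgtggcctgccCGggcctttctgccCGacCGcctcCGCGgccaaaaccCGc
E2f3, chr13:29984510-29984610, minus strand: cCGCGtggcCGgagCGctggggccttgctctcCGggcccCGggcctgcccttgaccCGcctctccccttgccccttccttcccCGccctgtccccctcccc
Sh2b2, chr5:136244965-136245065, minus strand: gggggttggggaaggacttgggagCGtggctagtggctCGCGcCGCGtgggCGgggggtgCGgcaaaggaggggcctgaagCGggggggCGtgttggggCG
Tulp4, chr17:6106612-6106712, plus strand: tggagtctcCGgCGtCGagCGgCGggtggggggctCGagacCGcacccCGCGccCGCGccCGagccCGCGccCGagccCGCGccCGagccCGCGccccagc
Nfe2l1, chr11:96829650-96829750, minus strand: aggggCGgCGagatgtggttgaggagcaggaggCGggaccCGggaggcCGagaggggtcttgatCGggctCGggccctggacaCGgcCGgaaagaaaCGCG
CpG occurred 18 times in the window of Ecpas (a proteasome adaptor), 18 times in that of Ehmt2 (a histone H3 lysine methyltransferase) and 20 times in that of Tulp4. It occurred 14 times in the window of Rbmxl1, an RNA-binding protein gene, and 8 times in that of E2f3, a transcription factor of the cell cycle. The windows of Sh2b2, a signalling adaptor gene, and Nfe2l1, a transcription factor gene, held 10 and 11. GC content ran from 70.3 to 86.1% over the 7. The eighth window, in Fbxl19, had a GC content of 59.4% and 2 CpG. The median GC content of the 18 YTHDC1 windows was 74.3%, and that of windows of the same length in all 32851 promoter entries was 53.5%. The letters GGAC, the core of the usual m6A motif, searched on the gene's strand, were present in 4 of the 18 windows (22.2%) and in 30.3% of the promoter windows. In windows of 51 bases the letters were present in 2 of 21 YTHDC1 windows (9.52%) and in 16.4% of promoter windows.

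The YTHDC1 list held most of the near-start intron peaks, also as a share of its intron peaks. Within 2000 nt of the gene start lay 12.7% of its 3537 intron peaks (exact binomial 95% interval 11.6 to 13.9%). The share was 4.62% of 1709 intron peaks for IGF2BP2 (3.68 to 5.73%) and 6.07% of 577 for YTHDF2 (4.26 to 8.34%). The YTHDC1 interval lay above both others, which overlapped each other. Measured instead from the nearest annotated transcript start upstream of the summit, the shares were 22.6% for YTHDC1, 18.3% for IGF2BP2 and 22.2% for YTHDF2, so that YTHDC1 then stood level with YTHDF2. Of the members themselves, 78.4% for YTHDC1, 79.7% for IGF2BP2 and 77.1% for YTHDF2 lay downstream of a further annotated start of the same gene.

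Set against the length of intron available, YTHDC1 summits were denser near the start than deeper in the gene, and the ratios for the other readers were smaller. Introns within 2000 nt of a gene start covered 28.7 Mb after removal of all exons, and deeper introns covered 932.2 Mb. YTHDC1 had 15.7 summits per Mb near the start (exact Poisson 95% interval 14.2 to 17.2) and 3.31 per Mb in deeper intron (3.2 to 3.43), a ratio of 4.73. IGF2BP2 had 2.75 per Mb (2.18 to 3.43) against 1.75 (1.67 to 1.84), a ratio of 1.57. YTHDF2 had 1.22 per Mb (0.848 to 1.69) against 0.581 (0.534 to 0.633), a ratio of 2.10. For peaks clear of all exons, the densities near the start and deeper were 11.3 and 2.75 per Mb for YTHDC1, 0.557 (0.318 to 0.904) and 0.285 (0.252 to 0.322) for YTHDF2, and 0.801 (0.508 to 1.2) and 0.809 (0.752 to 0.869) for IGF2BP2. For IGF2BP2 the 2 densities of clear peaks were thus alike. These densities use the full intron length, including intron too near an exon to hold a clear peak. How far this lowers the near-start values was not tested. The level of each transcript is unknown here, and genes without RNA add intron but no peaks. Within the 2894 genes that had a YTHDC1 exon peak, the densities were 63.4 and 12.1 per Mb, a ratio of 5.26. The same ratio was 2.06 over 2119 genes for IGF2BP2 and 2.52 over 1259 genes for YTHDF2.

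Along the first 2000 nt, the 3 readers had different profiles. YTHDC1 had 38.5 summits per Mb in the first 250 nt, 39.9 from 250 to 500 nt, 24.9 from 500 to 750 nt and 17.4 from 750 to 1000 nt. It then had 9.97 in the next 250 nt and 5.34 in the last 250 nt, close to the 5.57 per Mb from 2000 to 3000 nt. The counts behind the first 4 values were 46, 128, 95 and 70 summits. IGF2BP2 had 14.2 per Mb in the first 250 nt (17 summits, 8.30 to 22.8), of which 15 belonged to peaks that reached an exon. From 250 nt onward it stayed between 0.973 and 3.16 per Mb, the range that includes its 2.54 per Mb from 2000 to 3000 nt and the 2.95 per Mb from 4000 to 6000 nt. YTHDF2 had 3.35 per Mb in the first 250 nt from 4 summits (0.913 to 8.58), which overlaps the interval of its 1.80 per Mb from 2000 to 3000 nt (1.2 to 2.58). At the edge of the rule, the farthest member lay 1994, 1970 and 1999 nt from the start for IGF2BP2, YTHDF2 and YTHDC1, and the nearest intron summit beyond it lay at 2024, 2005 and 2006 nt.

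**Figure D1:**
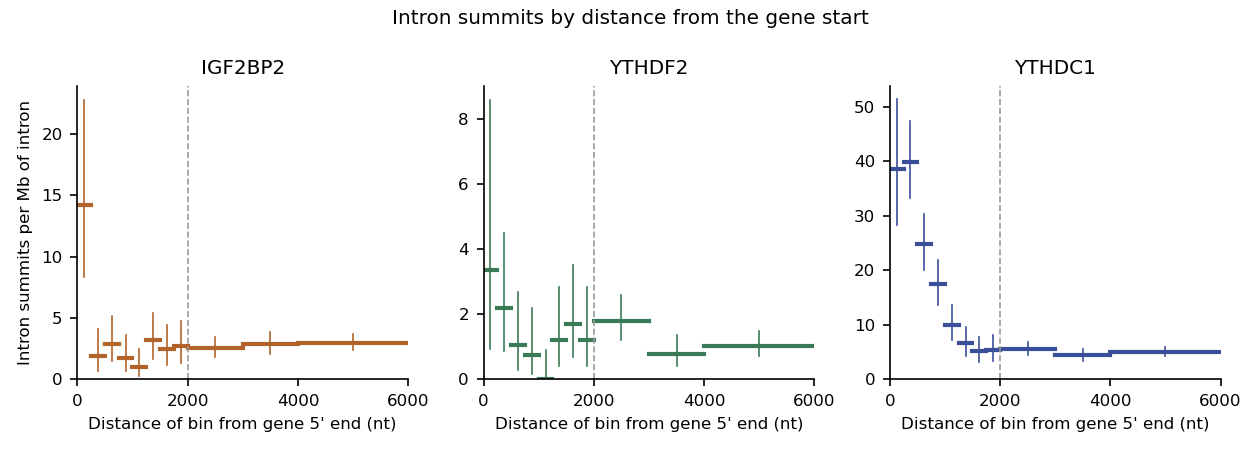
Intron summits per Mb of exon-free intron (vertical axis) against distance from the gene's 5′ end in nt (horizontal axis), 1 panel per reader with its own scale. Horizontal bars are bins, vertical lines are exact Poisson 95% intervals, and the dashed line marks 2000 nt. YTHDC1 falls from 39.9 per Mb at 250 to 500 nt to 5.34 in the last bin inside the line, while IGF2BP2 is high in the first bin alone, at 14.2.

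The readers also differed in where these summits sat relative to the exon before them. IGF2BP2 summits lay a median of 60 nt past the end of the upstream exon (quartiles 19.5 and 591), and 49.4% lay within 50 nt of it (37.9 to 60.9%). In deeper intron, 25.5% of IGF2BP2 summits lay within 50 nt of an upstream exon (23.4 to 27.6%). For YTHDC1 the median was 214 nt (quartiles 98 and 423.5), with 11.8% within 50 nt (8.95 to 15.1%) and 53.3% from 100 to 500 nt (48.6 to 58.0%). In deeper intron 7.94% of YTHDC1 summits fell in the range from 100 to 500 nt. YTHDF2 had a median of 212 nt (quartiles 49 and 515), 25.7% within 50 nt (12.5 to 43.3%) and 31.4% from 100 to 500 nt (16.9 to 49.3%). The rule bounds this distance at 2000 nt for members and not for deeper peaks. The first intron held 63.3% of IGF2BP2 members, 62.9% of YTHDF2 members and 78.9% of YTHDC1 members. The median length of the introns was 1202, 665 and 3114 nt in the same order.

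Peak intervals showed the same contrast. An annotated exon was reached by 56 of 79 peaks for IGF2BP2 (70.9%, 59.6 to 80.6%), by 19 of 35 for YTHDF2 (54.3%, 36.6 to 71.2%) and by 125 of 450 for YTHDC1 (27.8%, 23.7 to 32.2%). For deeper intron peaks the shares were 53.7%, 50.9% and 17.1%. The upstream exon alone was reached by 32 IGF2BP2 peaks, 9 YTHDF2 peaks and 76 YTHDC1 peaks, as at the junctions of Arglu1 and Suds3 printed above. Peaks clear of all exons numbered 23, 16 and 325, and the summits of the 325 YTHDC1 peaks lay a median of 293 nt past the upstream exon (quartiles 152 and 499). The part of exonic RNA in peaks that reach an exon was not tested.

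**Figure D2:**
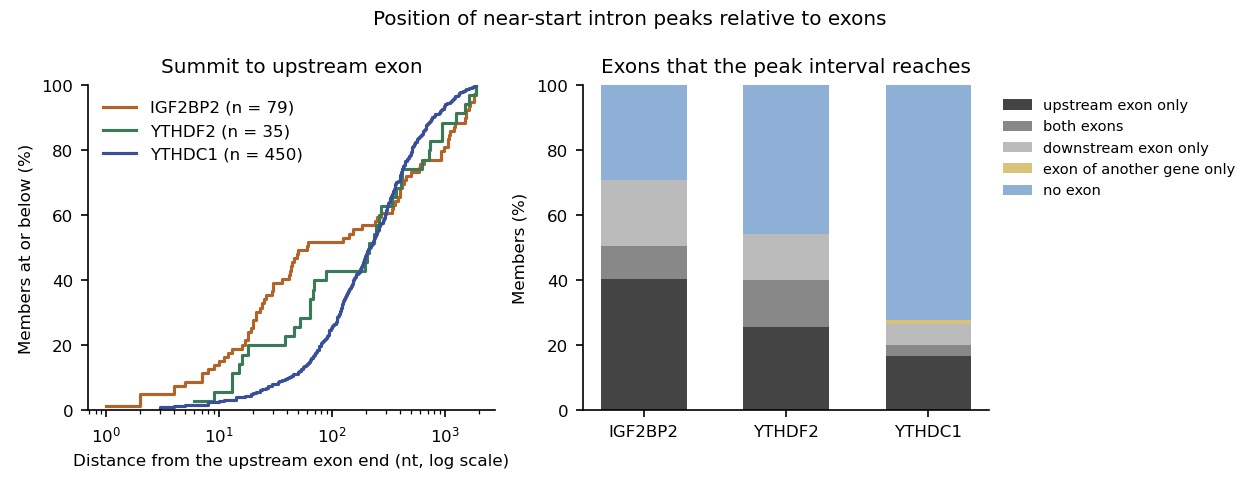
Left, cumulative percent of members (vertical axis) against the distance in nt from the end of the upstream exon to the summit (horizontal axis, log scale), 1 line per reader. Right, percent of members whose peak interval reaches the upstream exon, the downstream exon, both, an exon of another gene alone, or no exon. The IGF2BP2 line reaches 49.4% by 50 nt and the YTHDC1 line 11.8%, and 325 of the 450 YTHDC1 peaks reach no exon.

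YTHDC1 peaks near the start mostly had no partner in the other lists. A peak of another reader (1 bp or more in common) was overlapped by 40 of 450 YTHDC1 members, 8.89% (6.43 to 11.9%), against 22.9% of its deeper intron peaks and 31.1% of the whole list. For IGF2BP2 the overlap was 39 of 79, 49.4% (37.9 to 60.9%), against 42.0% of deeper intron peaks and 46.6% of the list. For YTHDF2 it was 21 of 35, 60% (42.1 to 76.1%), against 73.4% and 78.6%. The IGF2BP2 share was thus near both of its backgrounds. The YTHDF2 interval ended just below the 78.6% of its list but included the 73.4% of its deeper intron peaks. List lengths differ, so the shares are read only within a reader. YTHDC1 members overlapped IGF2BP2 peaks in 8.22% of cases and YTHDF2 peaks in 3.11%. Among the 325 YTHDC1 members clear of exons the share was 5.54%, and among the 23 such IGF2BP2 members it was 73.9%.

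**Figure D3:**
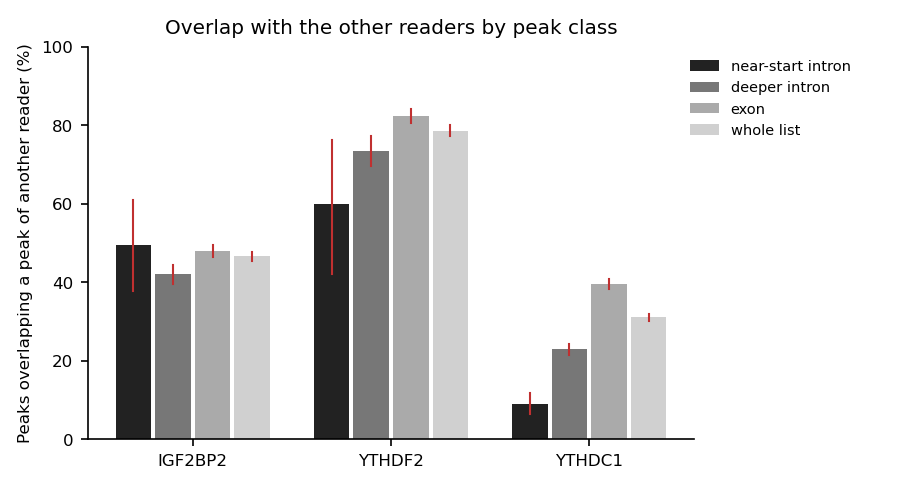
Percent of peaks that overlap a peak of either other reader by 1 bp or more (vertical axis), for near-start intron peaks, deeper intron peaks, exon peaks and the whole list of each reader. Red lines are exact binomial 95% intervals. The YTHDC1 near-start bar stands at 8.89%, below the 31.1% of its list, and the IGF2BP2 bar at 49.4%, beside the 46.6% of its list.

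The median fold of these peaks lay near that of deeper intron peaks for IGF2BP2 and YTHDC1. For YTHDF2 it was higher, but over 35 members and with overlapping quartiles. The authors' fold, a measure of the pileup over the background of the list, had a median of 5.47 for IGF2BP2 members (quartiles 3.94 and 7.70), and of 5.72 in deeper intron. At low pileups the fold follows the pileup: the highest IGF2BP2 folds at pileups of 3 and 4 were 3.94 and 4.93. Fold and pileup are thus not separate measures there. The medians were 6.38 (quartiles 3.95 and 8.01) and 4.94 (3.96 and 7.29) for YTHDF2, and 6.28 and 5.89 for YTHDC1. For YTHDF2 members clear of all exons the median was 5.2. The pileup at the summit was 5, 7 and 8 at the median for IGF2BP2, YTHDF2 and YTHDC1 members, and 26.6%, 34.3% and 15.1% of the summits had a pileup no higher than 3. In deeper intron the median pileup was 5, 4 and 6, and 32.1%, 42.8% and 26.7% of summits were at 3 or below. Low pileups were thus rarer among YTHDC1 members (15.1%, 11.9 to 18.8%) than in its deeper intron peaks (25.2 to 28.3%). A −log10 q of at least 5 was reached by 77.2% of IGF2BP2 members, 74.3% of YTHDF2 members and 71.8% of YTHDC1 members, against 82.3%, 77.1% and 70.1% of the lists.

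The 10 highest folds among the IGF2BP2 members lay in genes of several kinds. Arglu1, which encodes a splicing coactivator rich in arginine and glutamate, had a fold of 25.7 with the summit 546 nt from the gene start. YTHDC1 had a member there with a fold of 10.3, and YTHDF2 had no overlapping peak. Safb2, a nuclear matrix and RNA-binding protein gene, had a fold of 24.1 for IGF2BP2 at 1500 nt. Peaks of YTHDF2 and YTHDC1 with folds of 7.44 and 10.3 overlapped it but were not members. Sf1 encodes the protein that first recognises the branch point. Its IGF2BP2 and YTHDC1 summits lay at the same base, 1937 nt from the start, with folds of 20.1 and 18.1, and an overlapping YTHDF2 peak had a fold of 9.37. Hnrnpa1, a splicing repressor gene, had folds of 17.8 for IGF2BP2 and 8.73 for YTHDF2. The YTHDC1 peak over it had a fold of 21.7 and its summit was not a member.

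Other strong IGF2BP2 members were Afm (afamin, a carrier protein of blood plasma) with a fold of 22.3, and the predicted gene Gm21887 with 13.2 at only 36 nt from the start. Sspn (sarcospan) had 18, Stau2 12.4, Myo1f (a myosin of immune cells) 12.1 and Zwint (a kinetochore protein) 11.6. Some genes had no peak of another reader in the first 2000 nt. These were Nop56, a box C/D snoRNP protein gene, with a fold of 7.58, Alyref, an mRNA export factor gene, with 6.24 and Sap18, a gene of the splicing-linked ASAP complex, with 6.24. The summits of Alyref and Sap18 lay 7 and 18 nt past the upstream exon. The Sap18 peak, chr14:57798326-57798612, also covered the whole hairpin of miR-3077, chr14:57798424-57798487 on the plus strand. Its 2 mature miRNAs, with the seed (bases 2 to 8) in capitals, are shown because no other member covered a miRNA of the RefSeq table.
mmu-miR-3077-5p: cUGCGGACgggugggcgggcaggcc
mmu-miR-3077-3p: cUGACUCCcugcuucuccgcag

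The YTHDF2 members were few, and several sat at exon ends. Sspn had the highest fold, 21.3, and the highest pileup, 78. Supt5, the gene of a transcription elongation factor subunit, had a fold of 13.7 for YTHDF2 and 18.9 for YTHDC1, with summits 20 nt apart, and an IGF2BP2 peak of fold 31.2 overlapped both without being a member. Fau, which encodes a ribosomal protein fused to a ubiquitin-like protein, had 13.7 for YTHDF2. Gmip had 10.9 and no peak of another reader in the first 2000 nt. Fos, an immediate early transcription factor gene, had 9.12 with the summit 15 nt past the end of the third exon. March7, an E3 ubiquitin ligase gene, had 8.81 for YTHDF2 and 15.4 for YTHDC1, with the summits 2 nt apart. Suds3, a Sin3 corepressor subunit gene, had 8.28 for YTHDF2 and 9.91 for IGF2BP2 at the same base. Ncl, the nucleolin gene, had 7.75 at 212 nt.

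The YTHDC1 members with the highest folds mostly lay in the first intron. Those in Sirpa and Rpl36 lay in intron 2 and that in Sf1 in intron 3, and the peaks in Supt5, Sf1 and Rpl36 reached an exon. Afm stood highest of all members in fold, at 43.8, and in −log10 q, at 100.8, and its IGF2BP2 peak had its summit 11 nt away. Ripor2 had 21.1 at 1799 nt, and its IGF2BP2 peak had 11.0. Eri3, an exoribonuclease family gene, had 18.1, with the summit 181 nt past the first exon. Sirpa, the receptor for CD47 on myeloid cells, had 18.1, and Creb1, a transcription factor of cAMP signalling, had 17.6 with a pileup of 60. Usp9x, a deubiquitinase gene, had 17.2, Dennd4a 17.0 and Rpl36 16.5. No peak of another reader overlapped those in Eri3, Sirpa, Creb1, Usp9x, Dennd4a and Rpl36.

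The members nearest to and farthest from a gene start had folds from 3.92 to 7.85 and pileups from 3 to 9, except Gm21887 (fold 13.2, pileup 17). The smallest distances were 75 nt in Sfxn1, 103 nt in Mrps27 and 112 nt in Llph for YTHDC1, with folds of 7.62, 4.91 and 6.51. For IGF2BP2 they were 36 nt in Gm21887, 95 nt in Ing5 and 119 nt in Pkn3, and all 3 summits lay within 21 nt of the exon before them. For YTHDF2 they were 141 nt in Adgrg3, 153 nt in Tomm22 and 212 nt in Ncl, also within 18 nt of an exon. At the far end, Icam1, an adhesion receptor gene, was the last member for IGF2BP2 (1994 nt) and YTHDC1 (1999 nt), with a fold of 3.94 and of 3.92. Before it came Utp18 and Eef1b2 for IGF2BP2, and Elovl1 and Fcnb for YTHDC1. Elovl1, a fatty acid elongase gene, was also the last for YTHDF2, at 1970 nt, after Trim30b and Dctd. Trim30b (6.38) and 1500009L16Rik (6.38) had no peak of another reader in the first 2000 nt.

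Multiple near-start peaks in 1 gene were seen mainly for YTHDC1, in 32 of 417 genes. Sf1 had 3, with folds of 18.1, 6.77 and 3.64 at 1937, 756 and 1114 nt. Among the genes with 2 were Usp9x (17.2 and 10.4), Srsf5 (15.4 and 7.81), Nfe2l2 (11.5 and 7.44) and Actr2 (12.1 and 9.58). For IGF2BP2, Cct2 and Cc2d1b had 2 each, with folds of 6.90 and 3.90 in Cct2 and of 4.93 and 3.94 in Cc2d1b. For YTHDF2 no gene had more than 1.

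In 39 genes more than 1 list had a member, and 3 genes had one in each list. The members need not be the same peak: in Kif17, Map4k4, Phip and Rab8b those of the 2 lists did not overlap. Stau2, a gene for a protein that binds double-stranded RNA, had all 3 summits at 1 base, 449 nt from the start, where IGF2BP2 had a fold of 12.4, YTHDF2 one of 10.1 and YTHDC1 one of 8.23. Sspn had 18, 21.3 and 9.39 in the same order, with summits within 54 nt. Fau had 7.13, 13.7 and 12 within 47 nt. IGF2BP2 and YTHDF2 shared 12 genes, which is 15.6% of the IGF2BP2 genes and 34.3% of the YTHDF2 genes. IGF2BP2 and YTHDC1 shared 22 (28.6% and 5.28%), and YTHDF2 and YTHDC1 shared 11 (31.4% and 2.64%). Where such members overlapped, the summits lay a median of 16, 20 and 11.5 nt apart for the 3 pairs in that order. The lists share their background track up to a scale factor at the bases where it can be compared: the backgrounds computed from pileup and fold kept the ratio of the lists' smallest backgrounds within 1% at 3 of 3, 2 of 2 and 1 of 1 coinciding member summits. Folds of 2 readers at a place are therefore not independent of each other.

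**Figure D4:**
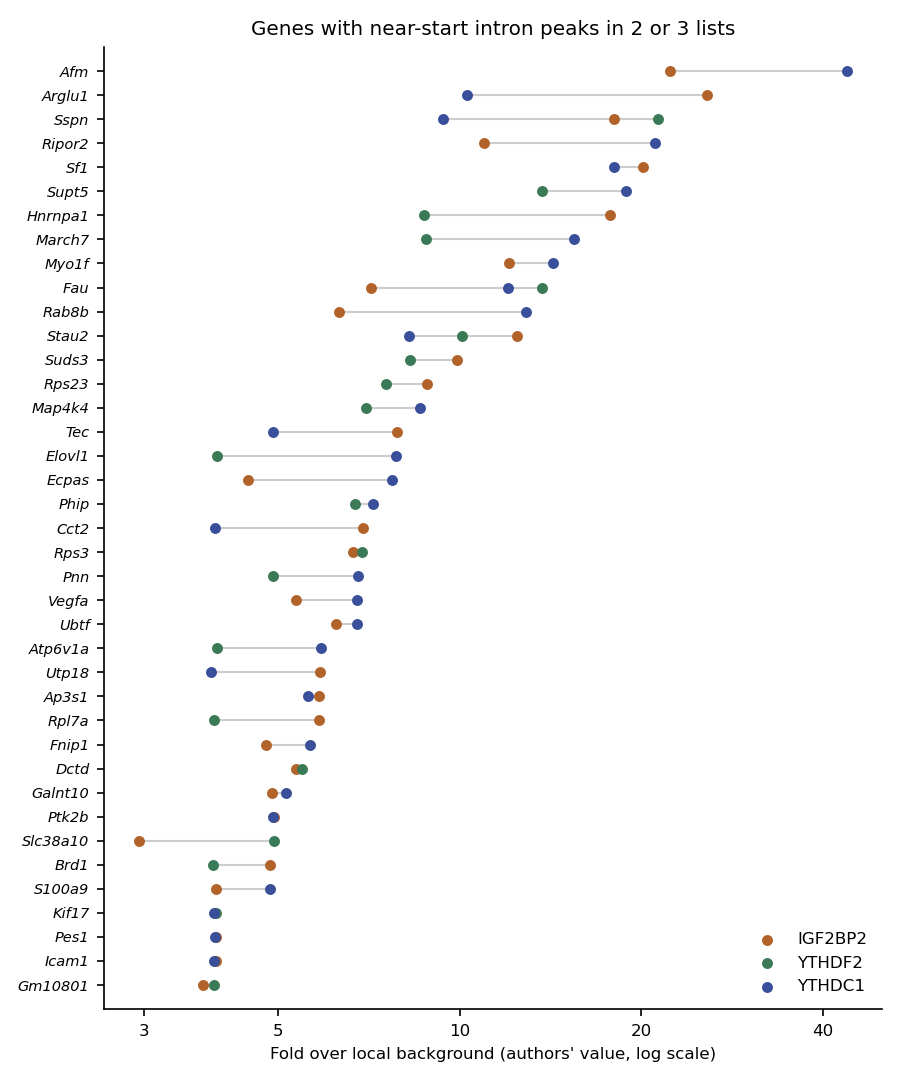
Fold over the local background (horizontal axis, the authors' value, log scale) for the 39 genes with near-start intron peaks in 2 or 3 lists (vertical axis), 1 point per reader. Points of a gene are joined by a grey line. Afm is highest at 43.8 for YTHDC1 and 22.3 for IGF2BP2, and the 3 points of Stau2 lie between 8.23 and 12.4.

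The gene lists were read against the share of all 19809 protein-coding genes with intron in the first 2000 nt that held a member. This share was 2.11% for YTHDC1, 0.389% for IGF2BP2 and 0.177% for YTHDF2. Of the genes with intron there and any YTHDC1 peak, 10.6% held a near-start one, against 3.02% for IGF2BP2 and 2.45% for YTHDF2. The second set of shares takes in bound genes only.

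Genes for hnRNP and related RNA-binding proteins had the highest share of YTHDC1 members among the lists. Some YTHDC1 peak lay in 31 of the 35 genes of this list. Of the 31 genes of the list with intron near the start, 8 held a near-start YTHDC1 peak (25.8%). Of these, Matr3 (fold 15), Hnrnpu (11.0), Hnrnpul1 (10.5) and Hnrnpa3 (9.56) were highest. IGF2BP2 had 1 of these genes, Hnrnpa1, and YTHDF2 had 2, Hnrnpa1 and Ncl. Of 26 splicing factor genes, YTHDC1 had 5 (19.2%): Sf1 (18.1), Srsf5 (15.4), Srsf1 (12.8), Tra2b (8.08) and Luc7l3. The SR protein genes Srsf1 and Srsf5 regulate exon choice, and the Srsf1 summit lay 30 nt past the first exon while the stronger Srsf5 summit lay 531 nt past it. IGF2BP2 had Sf1 alone and YTHDF2 none. Of 26 translation factor genes YTHDC1 had 4, Eif4a1 (9.56), Eif4e (8.44), Eif4b (6.80) and Eif4g2 (5.82), all of which act in initiation, and IGF2BP2 had Eef1b2.

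Regulators of chromatin and of signalling were found for YTHDC1. Of the 52 genes on a list of chromatin regulators it had 9 (17.3%), among them Kmt2e (10.4), Hdac1 (8.64), Chd1 (8.23) and Nsd2 (8.23). The other readers had none of the 52. At shares over all genes of 0.389% for IGF2BP2 and 0.177% for YTHDF2, this absence does not set the 52 genes apart. The list is also not complete: the chromatin genes Chd3 (YTHDF2, 7.75), Brd1 (IGF2BP2, 4.85, and YTHDF2, 3.91) and Suds3 are not on it, nor are Chd7 and Setd1a for YTHDC1. Of 36 receptor and signalling genes it had 5 (13.9%): Csf2ra (8.04), the receptor chain for GM-CSF, Jak1 (6.87), Cd44 (5.15), Map3k1 (4.78) and Cxcr4 (3.87). Of 24 genes on a list called cell cycle regulators it had 4, Ccnt2 (5.86), E2f3 (5.15), Cdk17 (4.04) and Cdk1 (2.90). A place on this list, as for Ccnt2 and Cdk17, does not by itself give a gene a role in the cell cycle. Of 63 transcription factor genes of blood and leukaemia it had 3 (4.76%), Nfe2l2 (11.5), Ets2 (10.4) and Stat3 (4.29), and 43 of the 66 genes of the list had some YTHDC1 peak. Myb, a factor of blood progenitors, was an IGF2BP2 member with a fold of 6.24, and Spi1, the gene of PU.1, a YTHDF2 member with 3.94. Of 348 zinc finger genes YTHDC1 had 5 (1.44%), Zfp710 (9.65) and Zfp207 (8.07) highest. Of 28 genes of transcription by RNA polymerase II it had 2, Supt5 and Aff4 (6.57).

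Ribosomal protein genes were the list with the most IGF2BP2 members by count, 7 of 75 (9.33%): Rps23 (8.84), Rps3 (6.65), Rpl38 (6.24), Rpl7a (5.86), Rps9, Rps27a and Rpl35. All 7 peaks reached an exon. YTHDF2 had Rps23 (7.54), Rps3 (6.89) and Rpl7a (3.92), each over the IGF2BP2 peak. YTHDC1 had members in 6 other genes (8.0%), Rpl36 (16.5), Rpl23 (8.12), Rpl31 (6.58), Rpl15 (6.01), Rpl19 and Rpl7l1. The readers were not separate at these genes, because peaks that were not members also overlapped IGF2BP2 members. YTHDC1 had such peaks in Rps23 (5.36), Rps9 (9.56) and Rps27a (7.84), and YTHDF2 in Rpl38 (7.75), Rps9 (9.28) and Rps27a (12.4). Fau, with a member in all 3 lists, is not on this list. Ribosomal protein genes have many processed pseudogenes, and reads shared with these cannot be traced in a peak list. Of 18 host genes of small nucleolar RNA, IGF2BP2 had 4 (Nop56, Rps3, Rpl7a and Eef1b2), YTHDF2 3 and YTHDC1 3. The shares were 22.2%, 16.7% and 16.7%, so that for IGF2BP2 this list stood above the ribosomal one by share. Rps3 and Rpl7a are on both lists. Of 24 chaperone genes, IGF2BP2 had Cct2 and YTHDC1 had Cct2 and Hsp90ab1 (6.66), and of 11 histone genes with intron YTHDC1 had H2afz (4.10). None of 18 genes for m6A writers, erasers and readers held a member in any list, nor did Prmt6 and Mfsd2a. At shares over all genes of 2.11% for YTHDC1, 0.389% for IGF2BP2 and 0.177% for YTHDF2, this absence does not set these genes apart.

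Markers of cell types gave few members. None of 8 lymphoid marker genes had a peak of any reader. A YTHDC1 peak of any place lay in 1 of 6 erythroid and 3 of 7 mature myeloid marker genes. It also lay in 3 of 6 lin- c-Kit+ marker genes, 5 of which have intron near the start. IGF2BP2 had 0, 2 and 2 of these genes and YTHDF2 0, 0 and 1, in the same order. Of all 19809 genes with intron near the start, 3940 had a YTHDC1 peak, 2550 an IGF2BP2 peak and 1427 a YTHDF2 peak. The absence from 8 genes therefore does not set the lymphoid list apart. Myb was the only member among 5 markers of the lin- c-Kit+ fraction, Tfrc (5.27, YTHDC1) the only one among 6 erythroid markers, and S100a9 the only one among 7 markers of mature myeloid cells, with 3.94 for IGF2BP2 and 4.84 for YTHDC1. Peaks mark bound RNA and give no level of expression.

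Near-start peaks were often not the sole peak of their gene. An exon peak of the same reader lay in 49 of 77 IGF2BP2 genes (63.6%, 51.9 to 74.3%), 18 of 35 YTHDF2 genes (51.4%, 34.0 to 68.6%) and 211 of 417 YTHDC1 genes (50.6%, 45.7 to 55.5%). The near-start peak was the reader's only peak in 22, 16 and 156 genes. No other peak of any reader was found in 6, 3 and 114 of them. Another reader had a near-start member in 30 YTHDC1 genes (7.19%, 4.91 to 10.1%), in 31 IGF2BP2 genes (40.3%) and in 20 YTHDF2 genes (57.1%).

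Genes with near-start members had CpG-rich first bases more often than all genes did. A gene was called CpG-rich when the first 200 transcribed bases of the longest transcript from its 5′ end had a GC content of at least 50% and an observed to expected CpG ratio of at least 0.6. This held for 48.2% of 19706 genes with sequence, and for 81.8% of 417 YTHDC1 genes (77.7 to 85.4%), 75.3% of 77 IGF2BP2 genes (64.2 to 84.4%) and 71.4% of 35 YTHDF2 genes (53.7 to 85.4%). Genes with a YTHDC1 exon peak and no near-start one reached 76.9% (75.3 to 78.5%), so that the intervals overlapped. The same class stood at 75.2% for IGF2BP2 and 77.0% for YTHDF2, both inside the interval of the near-start genes. Genes with a deeper YTHDC1 intron peak and no near-start one stood at 65.4% (63.1 to 67.6%), below the near-start genes. For YTHDC1 members clear of exons the share was 78.4% of 301 genes.

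**Figure D5:**
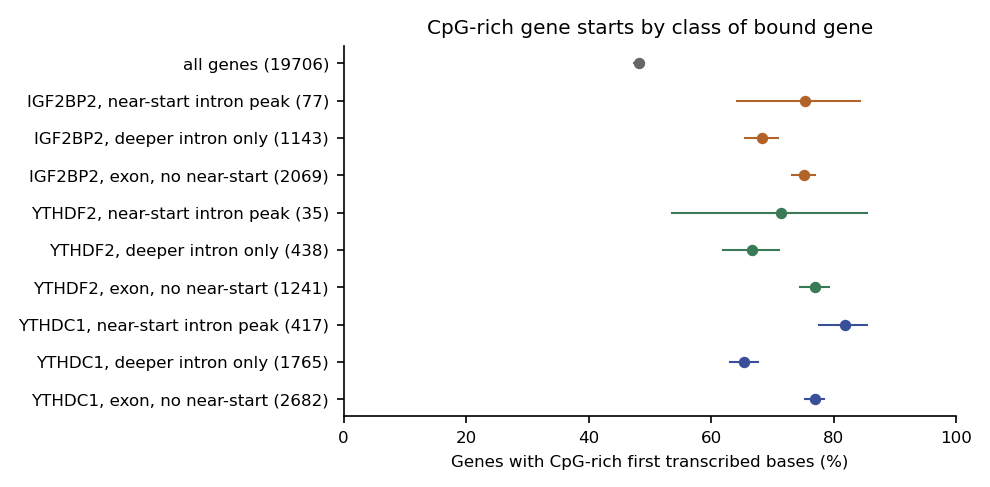
Percent of genes whose first 200 transcribed bases are CpG-rich (horizontal axis) for all genes and for the classes of bound genes (vertical axis, number of genes in brackets). Points are shares and lines exact binomial 95% intervals. YTHDC1 near-start genes stand at 81.8%, deeper YTHDC1 intron genes at 65.4% and all genes at 48.2%.

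The lists give no strand, so genes that overlap cannot be told apart. Another gene lay under 8 of the IGF2BP2 summits, 3 of the YTHDF2 summits and 33 of the YTHDC1 summits. Examples are Hoxa6 (fold 15) and Hoxa3 (13.7), homeobox genes that overlap antisense and readthrough transcripts of the Hoxa cluster, and Matr3.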

How the data were processed

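RNA bound by 3 readers was sequenced in 1 library each. The tools named are HISAT2, Trim Galore and bcl2fastq 2.17, with the build GRCm38, per the submitters' processing notes. The peak caller is not given in the sources used here. The deposited lists give each peak's summit, a fold over the local background, the −log10 of a p-value and q-value, a score, and the pileup signal at the summit. All are the authors' own values, used here only inside each list. Each list comes from 1 library, and library totals are unknown.

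Summits were placed on GENCODE M21 with Python 3.11.15, numpy 2.4.6 and scipy 1.17.1. The placement was tested on simulated positions. Distance runs from the 5′-most base of the gene. Overlap means 1 bp or more. The members and gene lists were chosen with earlier results of these data known. Named genes are the 10 highest folds per reader with −log10 q of at least 5, genes in all 3 lists, the 3 highest folds with no other reader in the first 2000 nt, those with most peaks, the 3 nearest and farthest, up to 4 per list, and Prmt6 and Mfsd2a. Genes named beyond these were chosen after their values were seen. Promoter sequence is RefSeq's, on GRCm38.p6. The measure of the first 200 transcribed bases and its thresholds were chosen after seeing the data.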

Additional observations from a re-analysis of the deposited data

How the results depend on the processing

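Counting −log10 q of at least 5, exons of protein-coding genes only, peaks clear of all exons, the nearest annotated start, summits within 100 nt and a 51 bp window as alternatives, 52 values were recomputed, and 32 stayed within the interval (counts: within 1.5 times). From the nearest annotated transcript start, 312 IGF2BP2, 128 YTHDF2 and 800 YTHDC1 peaks lay within 2000 nt, 18.3%, 22.2% and 22.6% of intron peaks, and 17.2% of the YTHDC1 ones overlapped another reader. Among peaks clear of all exons, 23 IGF2BP2 and 16 YTHDF2 members were left, the near-start share was 2.96% for IGF2BP2 and 11.3% for YTHDC1, the overlap share was 73.9% for IGF2BP2 and 5.54% for YTHDC1, and the median IGF2BP2 fold was 4.88. The density of these peaks, an alternative chosen after seeing the data, was 0.801 per Mb for IGF2BP2, 0.557 for YTHDF2 and 11.3 for YTHDC1. With −log10 q of at least 5, the density was 2.12 per Mb for IGF2BP2 and 11.2 for YTHDC1, because fewer peaks count over the same length, and the IGF2BP2 overlap share was 37.7%. For the other changes the cause was not tested. Window GC and GGAC could be recomputed for YTHDC1 alone, over 9 windows with −log10 q of at least 5 and 21 of 51 bp, where GGAC was in 22.2% and 9.52%. No paired analysis was possible because no result comes from a test and each reader has 1 library. Depth is unknown, and a pileup of 3 or less lies behind 15.1 to 34.3% of members.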

Other observations

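The genes of the ARP2/3 complex, which nucleates branched actin filaments, were looked up after their values had been seen, so their count is a description only. Of 10 genes for its subunits, 6 had a YTHDC1 peak in an intron within 2000 nt of the gene start. The share was 2.11% over all genes with intron there and 10.6% over those with any YTHDC1 peak. None of the 10 had one for IGF2BP2 or YTHDF2. With shares over all genes of 0.389% and 0.177% for these readers, that absence sets the 10 genes apart from no others. The folds were 13.8 for Actr3, 13.2 for Arpc1b, 12.1 and 9.58 for the 2 peaks of Actr2, 10.7 for Arpc2, 9.38 for Arpc4 and 8.69 for Arpc3. The summits of Actr3, Arpc1b and Arpc2 lay 43, 20 and 19 nt past the upstream exon and their peaks reached it. The peaks in Actr2, Arpc3 and Arpc4 were clear of exons.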
